A study of Bos taurus with 179 samples.

Results

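Among the genes read in single growing oocytes of cattle (Bos taurus), 86 are described here that were chosen by a rule on detection. A gene was low in a size group when 50% or more of the oocytes of that group had 0 counts for it, and the rule took the genes that were low in the oocytes above 120 µm and in no group of smaller oocytes. Of the 17969 genes with a count, 87 met the rule, and 1 of them was left out. A gene symbol was available for 37 of the 86, and the other 49 are known here only by their Ensembl identifier. Because the counts above 120 µm chose these genes, every value above 120 µm is a description and carries no test. The smaller oocytes entered the rule too, through the demand that a gene be low in none of their groups.

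The oocytes came from abattoir ovaries, were stripped of surrounding cells, measured and frozen singly, and libraries were primed on the poly(A) tail. In the study, fully grown oocytes were aspirated from follicles visible at the surface. Growing oocytes were freed by slicing the cortex and passed through filters. The labels do not give the route of each oocyte, so route and diameter cannot be told apart here. All oocytes were untreated, and the labels give a diameter for each but name no animal, age or breed. Some oocytes may thus share an animal. By diameter, 21 oocytes were below 60 µm, 25 were of 60 to 69 µm, 23 of 70 to 79 µm, 24 of 80 to 89 µm, 21 of 90 to 99 µm, 18 of 100 to 109 µm, 19 of 110 to 119 µm and 14 above 120 µm. Libraries were made in 2 replicates, which are library batches read at 150 bp in replicate 1 and 75 bp in replicate 2. Above 120 µm, 10 oocytes belong to replicate 1 and 4 to replicate 2. Below 60 µm, 3 belong to replicate 1 and 18 to replicate 2, while each other group holds more oocytes of replicate 1. Values of the smallest oocytes given over both replicates are thus mostly of replicate 2, and those of the larger oocytes mostly of replicate 1.

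A growing oocyte transcribes its genome and stores much of the mRNA for use after growth has ended. Towards full size transcription slows and then stops, and from then on a transcript can only be kept, translated or degraded. Libraries primed on the poly(A) tail read the tailed part of this store, and a rare transcript can have 0 counts in a library of limited depth. DMAC1, the marker of these genes, encodes a mitochondrial protein that takes part in assembling the distal membrane arm of respiratory complex I.

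The counted total per oocyte ranged from 277126 to 8038061, with a median of 1763520. The median was 1986086 counts at 110 to 119 µm and 1457609.5 counts above 120 µm. BMP15, an oocyte growth factor, had a count in 14 of 14 oocytes above 120 µm, with a median of 1688 counts scaled to the oocyte's total (CPM). The 4 oocyte markers, of 13 listed, that could be paired with an identifier (BMP15, AURKC, BTG4 and CPEB1) summed to between 6519 and 11163 CPM there. Of 11 listed markers of granulosa and cumulus cells 3 could be paired, and of 6 of leukocytes 3. Each set summed to a median of 0 CPM at 110 to 119 µm and above 120 µm. The highest values above 120 µm were 4.78 CPM for granulosa and cumulus cells and 2.48 CPM for leukocytes. The 2 paired markers of endothelium, of 3 listed, were at 0 in every oocyte of both groups. Markers that could not be paired were not looked at, so these values do not cover them. Of the 6 identifiers for theca and stroma, ACTA2 had medians of 8.12 CPM at 110 to 119 µm and 7.34 CPM above 120 µm, while COL1A1 and COL3A1 were at 0 in both.

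The 86 genes were rare transcripts. Their mean levels below 120 µm ranged from 1.10 to 36.2 CPM, with a median of 3.20 CPM, and the median gene had 3 counts per oocyte. The 10312 genes that were low in no group below 120 µm had a median of 32.6 CPM, and the median of the 86 stood at percentile 4.48 of them. Above 120 µm a count of 0 still allows a level of up to 3 counts, which is between 0.373 and 5.29 CPM depending on the oocyte, a limit that covers counting error only. In 4 of the 14 oocytes this limit was above the median level of the 86 genes, and 70 of the genes had a mean level below 120 µm that was under the highest of these limits. There, an absence could not be told at this depth from a level like that of smaller oocytes.

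Most of the genes stood at the edge of the rule. Of the 86, 52 had 0 counts in exactly 7 of the 14 oocytes, the smallest number that counts as low, among them ABCB9, ARNT2, C21H15orf39 and CACNG3. A further 24 had 0 counts in 8 oocytes and 9 in 9 oocytes, and DMAC1 alone had 0 counts in 11. Just outside the rule lay 77 genes with 0 counts in 6 of the 14 oocytes. Median detection below 120 µm was 75.4% of oocytes for the 52 genes at the threshold and 75.01% for the 77 just outside it, and their median levels above 120 µm were 1.54 and 1.85 CPM. Of the 34 genes past the threshold, 32 had a symbol, against 5 of the 52 at it. The genes described by name below are therefore mostly those past the threshold.

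At equal depth the rule no longer singled out these genes. Each oocyte was thinned to 250000 counts, where 1 count is worth 4 CPM, more than the mean level of 63 of the 86 genes below 120 µm. None of the 86 was low above 120 µm alone in any of 20 draws. In the first draw all 86 were low above 120 µm and each was low in at least 1 smaller group too, 83 of them at 110 to 119 µm, 73 at 100 to 109 µm and 43 at 60 to 69 µm. Other genes met the rule at that depth, between 91 and 127 per draw, and none of the 86 was among them. Genes this rare are low in most groups at that depth, so this outcome was largely set by the depth and no change is read from it. At the deposited depth the median of the mean levels was 1.35 CPM at 110 to 119 µm and 1.32 CPM above 120 µm, and each of the 86 genes had a count in some oocyte above 120 µm, so the genes are called here by their rule and not as lost.

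The number of the 86 genes with a count varied widely between oocytes of like size. It was 35 to 84 (median 68) below 60 µm, 47 to 86 (median 78) at 70 to 79 µm, 28 to 86 (median 58) at 90 to 99 µm, 22 to 81 (median 59) at 110 to 119 µm and 16 to 76 (median 34) above 120 µm. At 250000 counts the expected number was 19.95 to 53.10 (median 39.1) below 60 µm, 21.3 to 55.3 (median 45.4) at 70 to 79 µm, 19.5 to 47.5 (median 30.7) at 90 to 99 µm, 13.3 to 37.7 (median 20.8) at 110 to 119 µm and 6.21 to 34.4 (median 16.5) above 120 µm. The groups overlapped on both scales. At equal depth the median was already low at 110 to 119 µm, and its difference from the median above 120 µm was smaller than the SD of either group (6.75 and 8.97 genes).

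**Figure D1:**
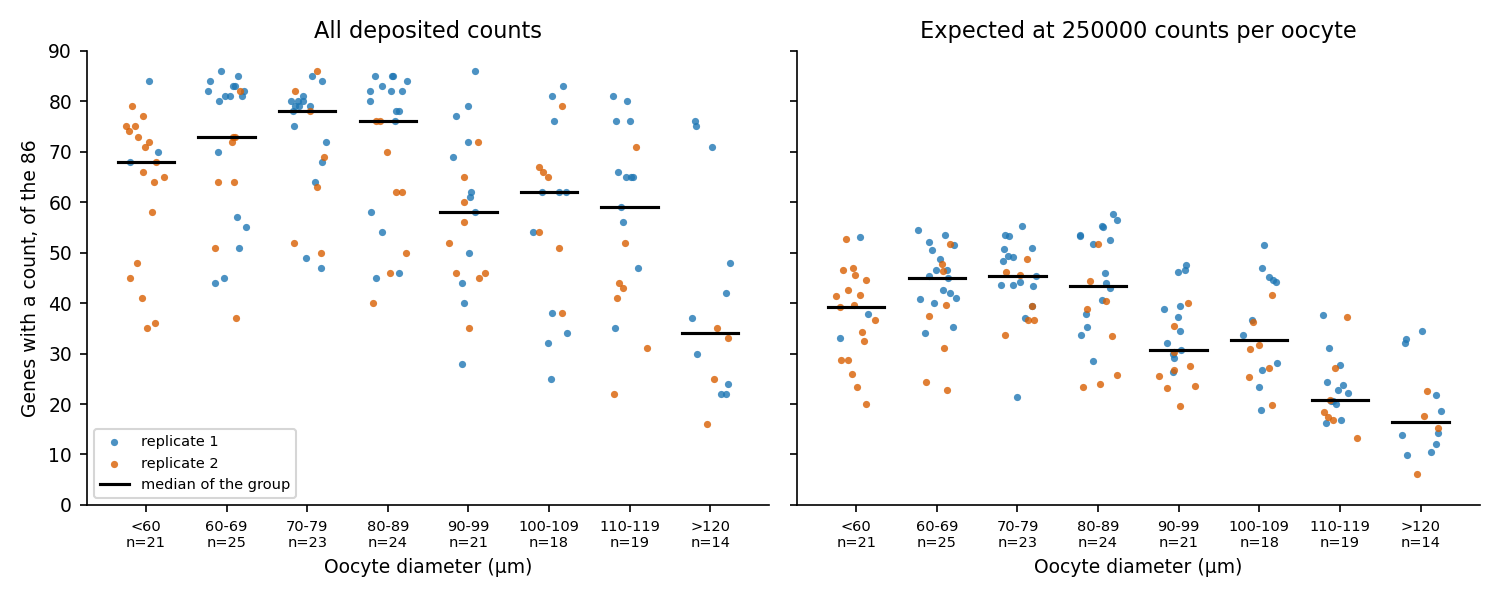
Number of the 86 genes with a count in each oocyte (vertical axis) by diameter group in µm (horizontal axis), with all deposited counts on the left and the number expected at 250000 counts per oocyte on the right. Points are oocytes, coloured by replicate, and the black lines are group medians: 59 and 34 for the last 2 groups on the left, and 20.8 and 16.5 on the right.

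The median summed level of the 86 genes was lower in each group from 90 µm upward than in each group below 90 µm, with overlapping ranges. It was 299.2 to 733 CPM (median 437) below 60 µm, 244.3 to 588 CPM (median 441) at 60 to 69 µm, 192 to 648 CPM (median 376.9) at 70 to 79 µm and 184 to 715 CPM (median 411.7) at 80 to 89 µm. It was 170.4 to 425 CPM (median 250.01) at 90 to 99 µm and 107.9 to 481.03 CPM (median 223.6) at 100 to 109 µm. At 110 to 119 µm it was 83.3 to 315 CPM (median 133), and above 120 µm it was 59.3 to 260.6 CPM (median 111.3). The last 2 groups overlapped over most of their range. Within replicate 1 the medians of these 2 groups were 136 and 95.1 CPM, and within replicate 2 they were 115.7 and 145 CPM, so the order of the medians differed between the replicates. The sum is weighted towards the more abundant genes. ENSBTAG00000002082 had mean levels of 82.3 CPM below 60 µm and 6.94 CPM at 110 to 119 µm, and CCK 29.4 and 2.20 CPM. The sum had means of 462 and 149 CPM in these groups, so it does not describe each of the 86 genes.

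**Figure D2:**
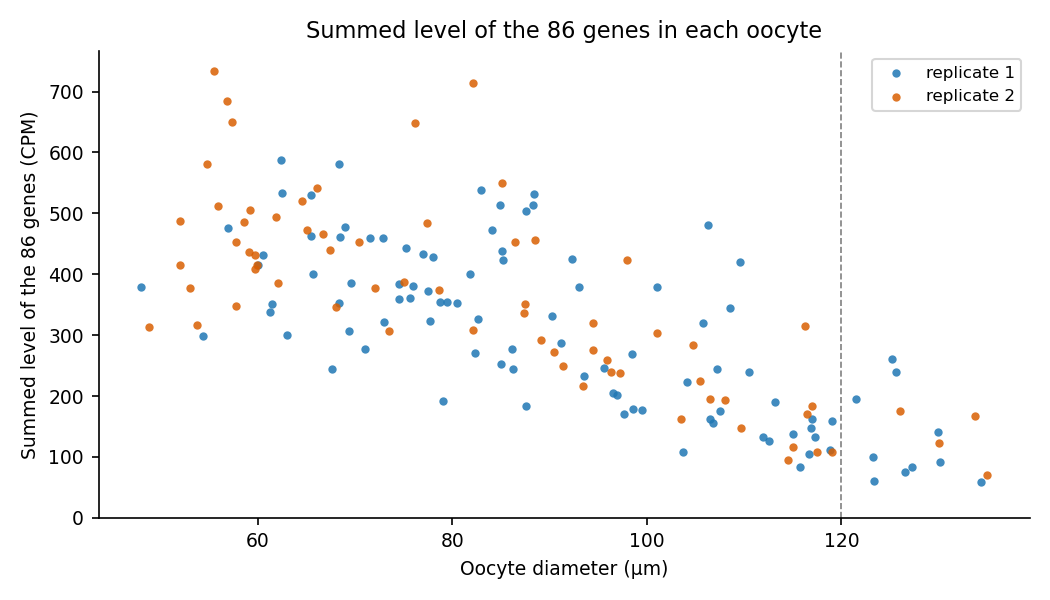
Summed level of the 86 genes in CPM (vertical axis) against diameter in µm (horizontal axis). Each point is 1 oocyte, coloured by replicate, and the dashed line marks 120 µm; the group medians run from 437 CPM below 60 µm through 133 CPM at 110 to 119 µm to 111.3 CPM above 120 µm.

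Within the oocytes above 120 µm the number of genes with a count was higher in the 3 deepest, which were also among the smaller ones. The 3 deepest oocytes had totals of 2826934, 4336856 and 8038061 counts, diameters of 121.5, 125.18 and 125.6 µm, and a count for 76, 71 and 75 of the 86 genes. The other 11 had totals between 566827 and 1813720 counts, diameters of 123.25 to 135 µm (median 129.89) and a count for 16 to 48 of the genes. All 86 genes had a count in at least 1 of the 3 deepest oocytes, and 56 had a count in each. Summed levels, which are scaled to depth, were also higher in the 3, at 196 to 260.6 CPM against 59.3 to 175 CPM in the 11. Without these 3 oocytes, an alternative chosen after seeing the data, the median detection of the 86 genes above 120 µm was 36.4% in place of 50%, and 145 genes met the rule, 85 of the 86 among them. The parts of depth and of diameter in this were not tested.

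DMAC1 (ENSBTAG00000015963) had 0 counts in more of the oocytes above 120 µm than any other of the 86 genes. It had a count in 20 of 21 oocytes below 60 µm, 24 of 25 at 60 to 69 µm, 23 of 23 at 70 to 79 µm and 21 of 24 at 80 to 89 µm. It had a count in 13 of 21 at 90 to 99 µm, 11 of 18 at 100 to 109 µm, 10 of 19 at 110 to 119 µm and 3 of 14 above 120 µm. The medians in this order were 9.03, 9.55, 6.49, 6.998, 1.31, 2.61, 0.336 and 0 CPM, and the highest values were 42.2, 40.5, 12.9, 15.5, 13.9, 12.6, 23.8 and 1.14 CPM. Many oocytes were thus at 0 from 90 µm upward, while single oocytes of 110 to 119 µm were above the median of those below 60 µm.

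Above 120 µm DMAC1 had 1 count in each of 3 oocytes, of 121.5, 130 and 130.11 µm, and 0 in the other 11. Of the 3 deepest oocytes, that of 121.5 µm had a count and the others had none. The 3 counts among 28764719 correspond to 0.104 CPM, against 143 counts among 44541570, or 3.21 CPM, at 110 to 119 µm. Of these 143 counts, 4 oocytes held 42, 34, 22 and 22. Above 120 µm 2 of 10 oocytes of replicate 1 and 1 of 4 of replicate 2 had a count, against 6 of 12 and 4 of 7 at 110 to 119 µm. At 250000 counts the expected detection was 84.97% below 60 µm, 31.7% at 110 to 119 µm and 4.12% above 120 µm.

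**Figure D3:**
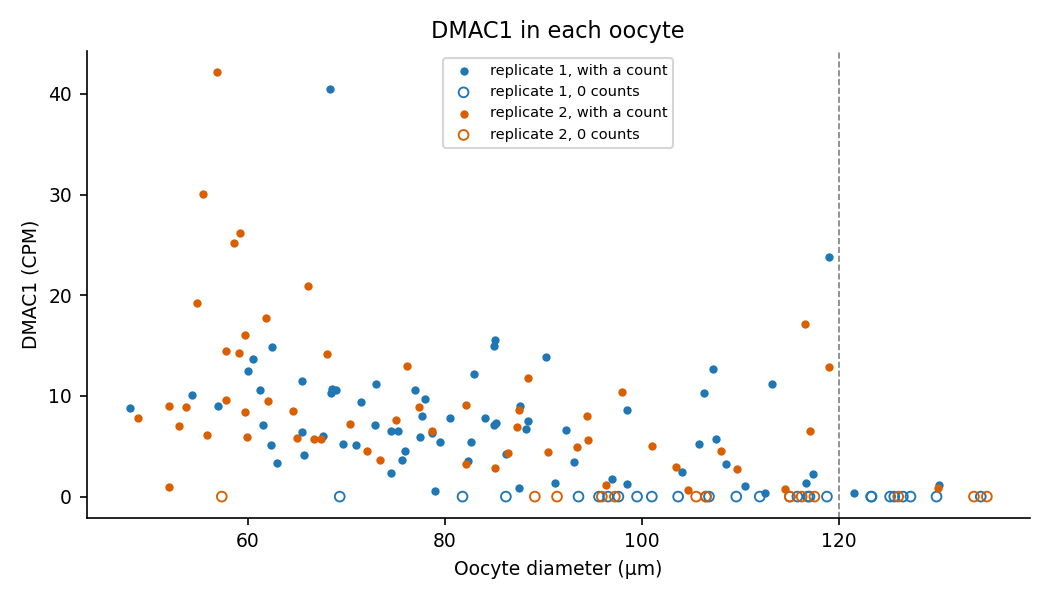
DMAC1 in CPM (vertical axis) against diameter in µm (horizontal axis), each point 1 oocyte, coloured by replicate and open where it had 0 counts, with the dashed line at 120 µm. Above the line 3 of 14 oocytes had a count, none above 1.14 CPM, while 10 of 19 had one at 110 to 119 µm.

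Whether these genes already differed with size before 120 µm was tested without the oocytes above 120 µm. Counts were summed by size group and replicate into 14 sums below 120 µm, and a slope over the mean diameter was fitted with edgeR, with the replicate as a block and Benjamini-Hochberg adjustment over all 13970 genes tested. Of the 86 genes, 21 fell with diameter at an adjusted p below 0.05 and 0 rose, while over all genes tested 10.3% fell and 12.3% rose. The median slope of the 86 genes was a log2 change of -0.13 per 10 µm against -0.00 over all genes, and the estimate was below 0 for 68 of the 86 against 50.5% of all genes. The rule had asked for a count in more than 50% of the oocytes of each of these groups. That leaves out rare genes that start near 0 and rise, and also those that fall to near 0 before 120 µm. It had also asked for genes that were low above 120 µm. The numbers that fell and rose are therefore not independent of the choice of genes and are a description beside the shares over all genes. The library batches are the only replicates, so p-values measure the spread between these sums and not between animals. Without the block, 5 of the 86 fell, and 497 of the 13970.

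The 21 genes that fell spanned log2 slopes from -0.60 to -0.20 per 10 µm. Their median level was 6.36 CPM below 60 µm, 1.52 CPM at 110 to 119 µm and 1.10 CPM above 120 µm. The other 65 genes had medians of 2.64, 1.31 and 1.39 CPM. The median was thus higher for the genes that fell in the smallest oocytes, which the test itself selects, and the medians were close at the largest sizes. Single genes departed from this, since DNAH6, at 13.6 CPM below 60 µm, was not called and OTX2, at 3.39 CPM, was.

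**Figure D4:**
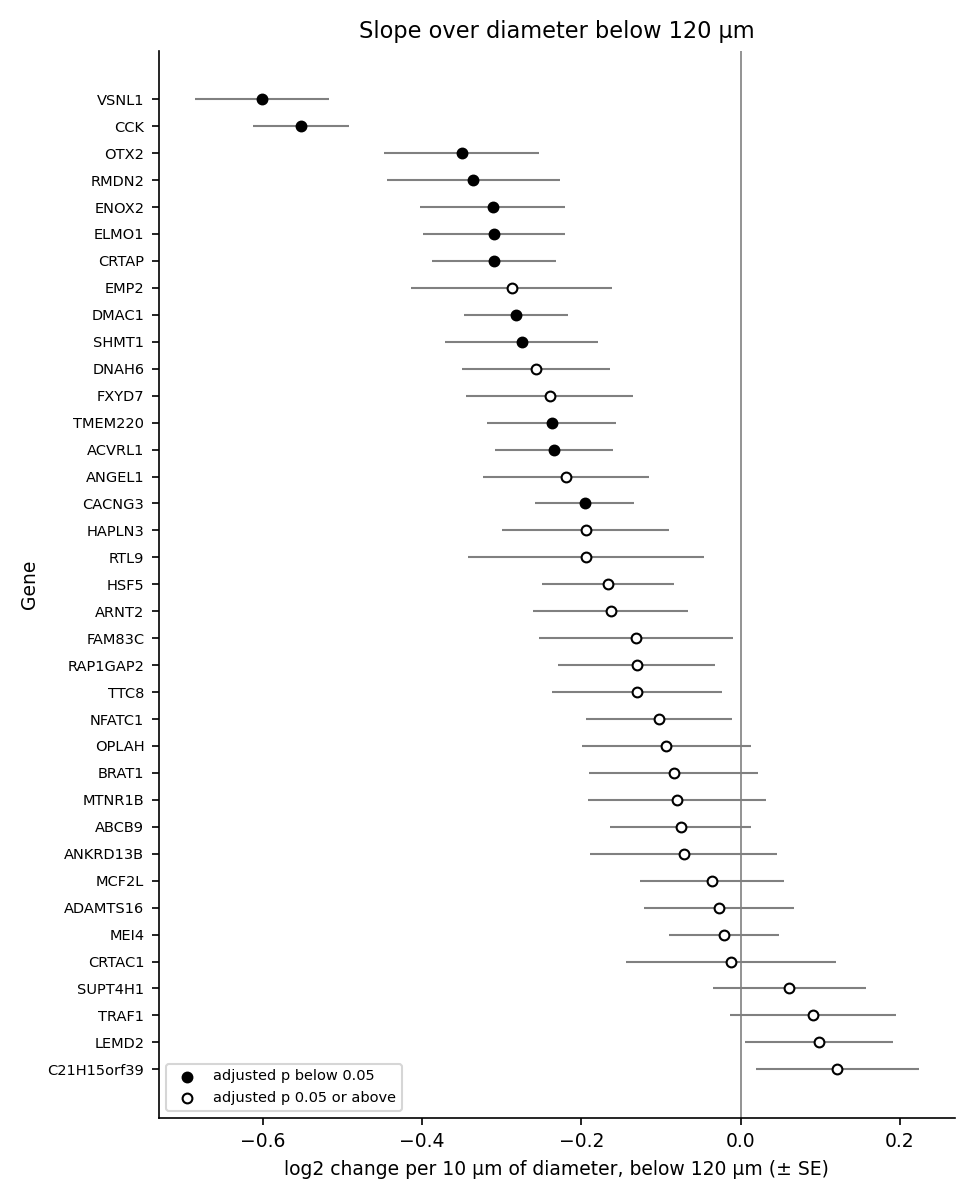
Slope over diameter below 120 µm as a log2 change per 10 µm (horizontal axis) for the 37 genes with a symbol (vertical axis), with bars of 1 SE from the edgeR fit. The 12 with an adjusted p below 0.05 are filled points that run from VSNL1 at -0.60 to CACNG3 at -0.20, and the others are open.

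CCK and VSNL1 had the steepest slopes among the genes with a symbol. CCK encodes cholecystokinin, a peptide hormone of gut and brain. Its level was 5.57 to 97.8 CPM (median 27.5) below 60 µm, 0 to 22.97 CPM (median 7.27) at 80 to 89 µm, 0 to 8.47 CPM (median 1.34) at 110 to 119 µm and 0 to 11.4 CPM (median 0) above 120 µm. It had a count in 21 of 21 oocytes below 60 µm, against 13 of 19 and 6 of 14 in the last 2 groups. The log2 slope of CCK per 10 µm was -0.55 (SE 0.0601, adjusted p = 4.79e-06) by edgeR.

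VSNL1 encodes visinin-like 1, a calcium-sensing protein best known from neurons. Its level was 0 to 48.6 CPM (median 10.1) below 60 µm, 0 to 24.3 CPM (median 8.84) at 80 to 89 µm, 0 to 3.32 CPM (median 0.596) at 110 to 119 µm and 0 to 1.73 CPM (median 0) above 120 µm, where it had 9 counts in all, in 5 of 14 oocytes. The log2 slope of VSNL1 was -0.60 (SE 0.0841, adjusted p = 5.88e-05).

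DMAC1 fell below 120 µm too, with a log2 slope of -0.28 (SE 0.0654, adjusted p = 0.00431). CCK, VSNL1 and DMAC1 fell in every alternative fit of the slope, the fit without the block and those leaving out 1 sum included. From 100 to 109 µm to 110 to 119 µm the log2 change of DMAC1 was 0.99 (SE 0.505, edgeR adjusted p = 0.223), which did not pass the test. It ranged from 0.38 to 1.43 with 1 sum left out, the lowest without replicate 2 and the highest without replicate 1 of 110 to 119 µm, and was 0.42 without the deepest oocyte of 100 to 109 µm, an alternative chosen after seeing the data. The medians of single oocytes and the share with a count were lower at 110 to 119 µm, so these measures and the sums differ in sign.

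Among transcription factors and related proteins, OTX2, a homeobox factor of head and eye development, fell with a log2 slope of -0.35 (SE 0.0972, adjusted p = 0.0136). OTX2 had a count in 14 of 21 oocytes below 60 µm, 22 of 25 at 60 to 69 µm, 10 of 19 at 110 to 119 µm and 5 of 14 above 120 µm. NFATC1, a calcium-dependent transcription factor, SUPT4H1, a subunit of a transcription elongation factor, and HSF5, a heat shock factor family member of germ cells, had slopes of -0.10, 0.06 and -0.17 that did not pass. Above 120 µm HSF5 had 9 counts in 5 of 14 oocytes, NFATC1 98 in 6 of 14 and SUPT4H1 78 in 6 of 14. A like number of empty oocytes thus went with mean levels as far apart as 0.274 CPM for HSF5 and 1.67 CPM for NFATC1.

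MEI4, which is needed for the DNA breaks that start meiotic recombination, was among the genes with little slope before 120 µm. It had a count in 19 of 21 oocytes below 60 µm and in 17 of 19 at 110 to 119 µm, with medians of 5.19 and 2.11 CPM, and its log2 slope of -0.02 (SE 0.0687, adjusted p = 0.862) did not pass. Above 120 µm MEI4 had a count in 5 of 14 oocytes, at 0 to 1.74 CPM, and 14 of its 22 counts were in the deepest oocyte. At equal depth the expected detection was 45.7% at 110 to 119 µm and 9.23% above 120 µm. In replicate 1 it had a count in 4 of 10 oocytes above 120 µm and in replicate 2 in 1 of 4, against 11 of 12 and 6 of 7 at 110 to 119 µm.

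Of the receptors, ACVRL1, a type I receptor of the TGF-β family best known from endothelium, fell below 120 µm with a log2 slope of -0.23 (SE 0.0739, adjusted p = 0.0274). Its median was 6.73 CPM below 60 µm, 5.23 CPM at 80 to 89 µm, 1.51 CPM at 110 to 119 µm and 0 CPM above 120 µm. It had a count in 17 of 19 oocytes at 110 to 119 µm and in 6 of 14 above 120 µm, where the 2 deepest oocytes held 40 and 17 of its 65 counts. MTNR1B, a melatonin receptor, had a slope of -0.08 (adjusted p = 0.650) and mean levels of 1.12 CPM at 110 to 119 µm and 2.21 CPM above 120 µm. For MTNR1B fewer oocytes with a count went with a higher mean.

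Among genes of the cilium, DNAH6, a heavy chain of axonemal dynein, had medians of 9.90 CPM below 60 µm, 6.71 CPM at 80 to 89 µm, 2.28 CPM at 110 to 119 µm and 0 CPM above 120 µm. Its log2 slope of -0.26 (SE 0.0931, adjusted p = 0.0529) missed the threshold. Above 120 µm DNAH6 had a count in 6 of 14 oocytes, and 17 of its 35 counts were in the oocyte of 127.25 µm. TTC8, a subunit of the BBSome that carries cargo into cilia, had a slope of -0.13 (adjusted p = 0.408) and a count in 14 of 19 and 6 of 14 oocytes in the last 2 groups.

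Among genes of intracellular signalling, ELMO1, a partner in the activation of the small GTPase Rac, fell with a log2 slope of -0.31 (SE 0.0893, adjusted p = 0.0169). Its median was 6.90 CPM at 60 to 69 µm, 0.750 CPM at 110 to 119 µm and 0 CPM above 120 µm. RAP1GAP2, which turns off the GTPase Rap1, and TRAF1, an adaptor of tumour necrosis factor receptors, had slopes of -0.13 and 0.09 that did not pass. RAP1GAP2 had a count in 16 of 19 oocytes at 110 to 119 µm and in 6 of 14 above 120 µm, with 16 counts in all there.

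Of the metabolic enzymes, SHMT1, the cytosolic enzyme that moves carbon units from serine to folate, fell with a log2 slope of -0.27 (SE 0.0957, adjusted p = 0.0444), and ENOX2, a cell-surface oxidase, with -0.31 (SE 0.0912, adjusted p = 0.0184). OPLAH, the oxoprolinase of the glutathione cycle, had a slope of -0.09 (adjusted p = 0.566). SHMT1 had medians of 7.16 CPM at 60 to 69 µm and 0.501 CPM at 110 to 119 µm, and mean levels of 1.73 and 1.48 CPM in the last 2 groups, so the level above 120 µm was close to that just below.

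For matrix and membrane, HAPLN3, a link protein of the hyaluronan matrix, was the only one of the 86 called in the test between 100 to 109 µm and 110 to 119 µm. Its level was 0 to 25.6 CPM (median 5.73) at 100 to 109 µm and 0 to 6.54 CPM (median 0.450) at 110 to 119 µm, and the log2 change was -2.70 (SE 0.572, edgeR adjusted p = 0.0388). The call was lost without replicate 1 of 60 to 69 µm, at -2.69 (adjusted p = 0.0538), without replicate 1 of 100 to 109 µm, at -1.90 (adjusted p = 0.440), without replicate 1 of 110 to 119 µm, at -3.03 (adjusted p = 0.376), without the block, at -2.80 (adjusted p = 0.821), and at 250000 counts, at -1.58 (adjusted p = 0.125). HAPLN3 had a mean of 1.36 CPM at 110 to 119 µm and of 2.38 CPM above 120 µm. EMP2, a tetraspan membrane protein, FXYD7, a regulator of the sodium pump, ADAMTS16, a secreted protease, and CRTAC1, a matrix protein, had slopes of -0.29, -0.24, -0.03 and -0.01 that did not pass.

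Of the genes outside these groups, CRTAP, which takes part in collagen hydroxylation, fell with a log2 slope of -0.31 (SE 0.0781, adjusted p = 0.00772). RMDN2, a microtubule-associated protein, fell with -0.34 (SE 0.108, adjusted p = 0.0312), CACNG3, an auxiliary subunit of glutamate receptors, with -0.20 (SE 0.0621, adjusted p = 0.0287), and TMEM220, a membrane protein, with -0.24 (SE 0.0814, adjusted p = 0.0415). RTL9, a gene of retrotransposon origin, had its highest median at 80 to 89 µm, at 7.38 CPM, against 0.797 CPM below 60 µm and 0.450 CPM at 110 to 119 µm, and its slope of -0.19 (adjusted p = 0.370) did not pass. BRAT1, which takes part in the DNA damage response, and LEMD2, a protein of the inner nuclear membrane, had slopes of -0.08 and 0.10 that did not pass.

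Single sums decided some of these calls. OTX2 and CRTAP kept an adjusted p below 0.05 whichever sum was left out. ELMO1 lost it when the sum left out was that of 110 to 119 µm (replicate 2), with an adjusted p of 0.0649, and ENOX2 when it was that of 110 to 119 µm (replicate 2), with an adjusted p of 0.0651. ACVRL1 lost it when the sum left out was that of the smallest oocytes (replicate 2), 90 to 99 µm (replicate 2), 100 to 109 µm (replicate 2) or 110 to 119 µm (replicate 1 or 2), with adjusted p of 0.0520 to 0.104. RMDN2 lost it when the sum left out was that of the smallest oocytes (replicate 2), 60 to 69 µm (replicate 1), 90 to 99 µm (replicate 2), 100 to 109 µm (replicate 2) or 110 to 119 µm (replicate 2), with adjusted p of 0.0521 to 0.108. CACNG3 lost it when the sum left out was that of the smallest oocytes (replicate 2), 60 to 69 µm (replicate 1) or 110 to 119 µm (replicate 1 or 2), with adjusted p of 0.0630 to 0.0958. SHMT1 lost it when the sum left out was that of the smallest oocytes (replicate 2), 60 to 69 µm (replicate 1), 70 to 79 µm (replicate 1 or 2), 80 to 89 µm (replicate 1), 100 to 109 µm (replicate 2) or 110 to 119 µm (replicate 1 or 2), with adjusted p of 0.0542 to 0.1497. TMEM220 lost it when the sum left out was that of 60 to 69 µm (replicate 1 or 2), 70 to 79 µm (replicate 2), 80 to 89 µm (replicate 1), 90 to 99 µm (replicate 1 or 2), 100 to 109 µm (replicate 1) or 110 to 119 µm (replicate 1), with adjusted p of 0.0528 to 0.116. Without the block, none of these 9 passed, while the median slope of the 86 genes was -0.126 with the block and -0.125 without it. At 250000 counts SHMT1, CACNG3 and TMEM220 lost it as well, with slopes of -0.17 (adjusted p = 0.195), -0.21 (adjusted p = 0.0726) and -0.22 (adjusted p = 0.0527), and without the filter on low counts with -0.27 (adjusted p = 0.0590), -0.19 (adjusted p = 0.0513) and -0.24 (adjusted p = 0.0513). CACNG3 also lost it without the deepest oocyte of 100 to 109 µm, at -0.15 (adjusted p = 0.0913).

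**Figure D5:**
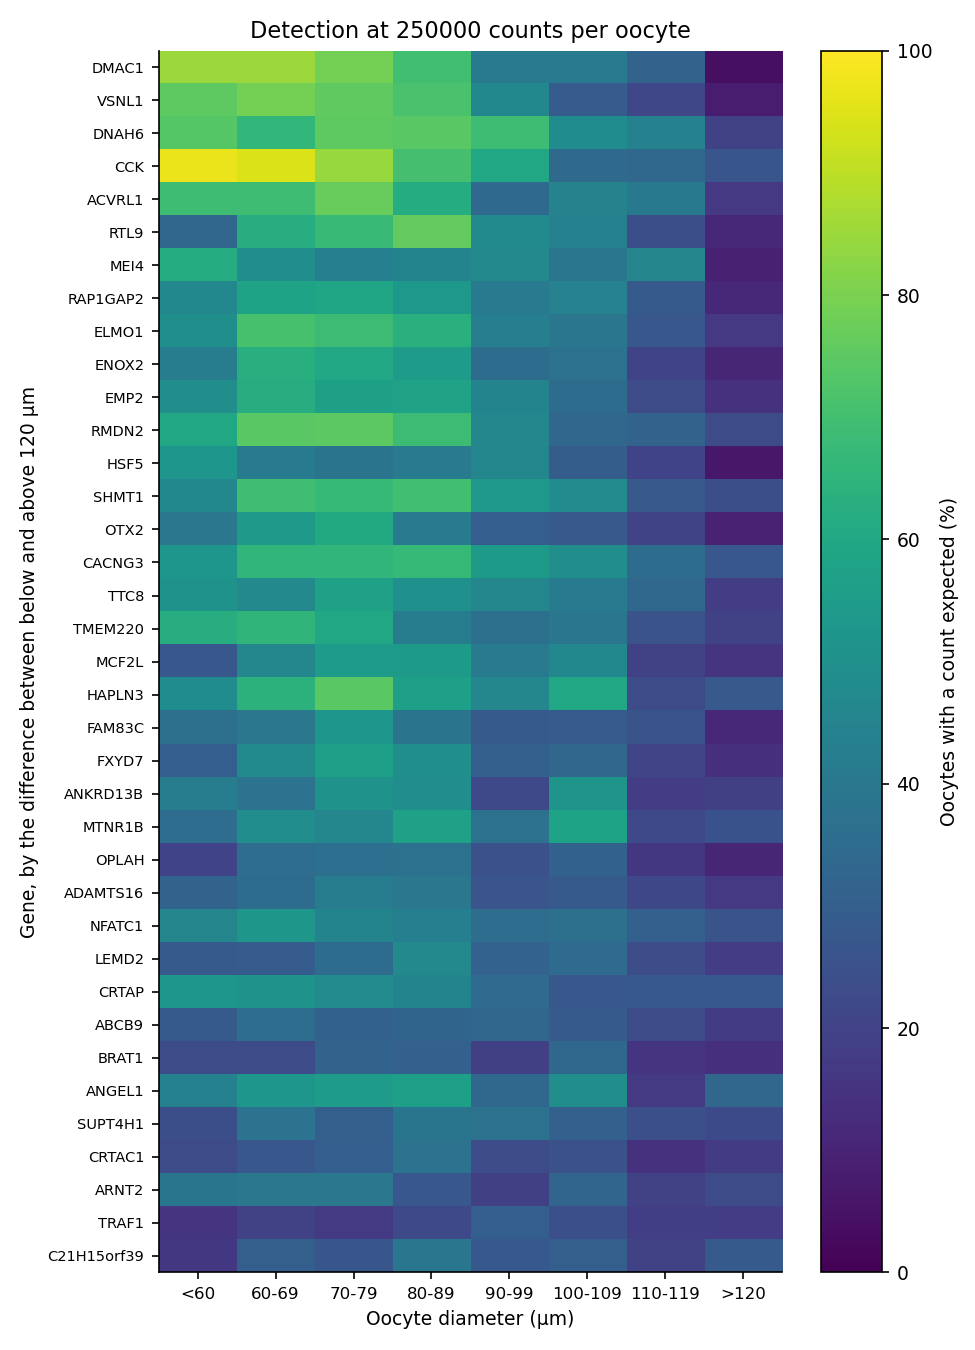
Share of oocytes with a count expected at 250000 counts (colour, in %) for the 37 genes with a symbol (vertical axis) in 8 diameter groups in µm (horizontal axis). Genes are ordered by the mean share below 120 µm minus the share above it, from DMAC1 (57.778 percentage points) to C21H15orf39 (-1.06), and DMAC1 goes from 84.97% below 60 µm to 4.12% above 120 µm.

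Over all 13970 genes, 1.37% were called lower and 1.60% higher at 110 to 119 µm than at 100 to 109 µm. Of the 86 genes, 1 (HAPLN3) was called lower and 0 higher. An unadjusted p below 0.05 by edgeR was found for 11 of the 86 against 3633 of the 13970, a smaller share of the 86 than of all genes. The shares were not matched for abundance, so no smaller change is read from this. The median log2 change was -0.55 for the 86 genes and -0.02 over all genes, and 64 of the 86 estimates were below 0. With 1 sum left out the median of the 86 ranged from -0.79, without replicate 2 of 110 to 119 µm, to -0.24, without replicate 1 of 100 to 109 µm. With single oocytes as samples it was -0.28 over the 67 tested. In a fit that also held the oocytes above 120 µm, given as a description, 46 of the 86 genes had a log2 change of -1 or lower at 110 to 119 µm relative to the mean of the groups below 90 µm, against 16.7% of 14087 genes. The median of that change was -1.09 for the 86 and -0.11 over all genes. From 100 to 109 µm to 110 to 119 µm in the same fit, 28 of the 86 had a log2 change of -1 or lower, against 18.1% of all genes.

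For the step above 120 µm, which the rule used, 57 of the 86 genes had a log2 change from 110 to 119 µm below 0 and 29 above it, with a median of -0.43, against 49.1% of 14087 genes below 0 and a median of 0.02 over all genes. A change of -1 or lower was found for 23 of the 86 and for 7.94% of all genes. ANGEL1, a gene of the CCR4 family, had mean levels of 0.736 CPM at 110 to 119 µm and 3.09 CPM above 120 µm, and ARNT2, a bHLH-PAS transcription factor, 0.920 and 1.58 CPM, so both had a higher mean above 120 µm. At 250000 counts, 56 of the 86 (65.1%) had a lower expected detection above 120 µm than in every smaller group, against 10.6% of the 10312 genes low in no group below 120 µm, and nothing is read from this because the rule used these oocytes.

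The rule was also applied in 1 library batch and the genes it took were measured in the other, an alternative chosen after seeing the data. Replicate 1 alone gave 65 genes, 29 of them among the 86. In the 4 oocytes above 120 µm of replicate 2, 50 of these 65 (76.9%) had 0 counts in 50% or more, against 6.56% of 10225 genes low in no smaller group of replicate 1. In replicate 2, 48 of the 65 (73.85%) had a lower detection above 120 µm than below it, against 12.2% of those genes, and at equal depth 47 (72.3%), against 25.1%. Replicate 2 alone gave 3.16 times as many genes as the 86, of which 26 (9.56%) were low in the 10 oocytes of replicate 1, against 0.839% of 9650 genes. Their median detection in replicate 1 was 90% above 120 µm and 88.5% below it, and 143 (52.6%) had a lower detection above 120 µm, against 9.52% of the 9650, so at full depth the median was not lower above 120 µm. At equal depth 206 (75.7%) were lower, against 36.8%. The genes compared with were more abundant, with a median detection of 100% against 60.9% and 88.5% for the chosen genes below 120 µm, and this was not adjusted for. A gene with a count in 60.9% of oocytes can readily have 0 counts in 50% or more of 4 oocytes without any change. Genes detected in 100% seldom do. These contrasts were thus set in part by abundance, and no change above 120 µm is read from them. Of the 86 genes themselves, 50 were low above 120 µm in replicate 1, 78 in replicate 2 and 42 in both.

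Relatives of these genes, from lists written with earlier results known, differed in how many were low above 120 µm. Their calls for the slope stand beside 10.3% of all genes that fell and 12.3% that rose, and counts this small are not set apart from those shares. Among 9 paired activin and BMP receptors, ACVRL1 alone was among the 86. BMPR1B, with medians of 102.4 CPM at 110 to 119 µm and 104.5 CPM above 120 µm, and BMPR1A, with 47.2 and 43.03 CPM, had a count in every oocyte of both groups, while ACVR1C and AMHR2 were low at every size. Of the 7 tested, BMPR1A rose below 120 µm (log2 slope 0.14, edgeR adjusted p = 0.0279) and ACVRL1 fell. Of 10 paired genes of the BBSome and its chaperonins, all tested, TTC8 was among the 86, BBS1 was low at every size, and BBS4 and BBS10 fell with slopes of -0.13 (adjusted p = 0.00830) and -0.25 (adjusted p = 0.0366). Of the 3 paired genes of complex I assembly (of 18 on the list), DMAC1, for which the list was made, and COA1 fell. COA1, with a slope of -0.18 (adjusted p = 0.00187), had a count in every oocyte of the last 2 groups, with medians of 45.8 and 62.1 CPM, and ACAD9 had a slope of 0.15 (adjusted p = 0.139).

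Of 11 paired nuclear subunits of cytochrome c oxidase, 0 were among the 86, and COX5A rose below 120 µm (log2 slope 0.22, edgeR adjusted p = 0.00251). Of 14 paired ADAMTS proteases, ADAMTS16 was among the 86, 7 were low above 120 µm and 7 in at least 1 smaller group. ADAMTS4 rose with a slope of 0.25 (adjusted p = 0.0452) and was called lower from 100 to 109 µm to 110 to 119 µm, at -1.77 (adjusted p = 0.0478). Of the 4 ANKRD13 genes, ANKRD13B was among the 86 and ANKRD13D rose with a slope of 0.48 (adjusted p = 0.00149). Of 26 paired adhesion G protein-coupled receptors, 15 were low above 120 µm, 19 were low in at least 1 smaller group and 0 were among the 86, and 2 of the 17 tested (ADGRG3 and ADGRG6) fell. Of 9 paired BTB domain genes, all tested, 1 rose (BTBD19), 3 fell (BTBD3, BTBD9 and BTBD11) and 0 were among the 86, again beside 12.3% and 10.3% of all genes.

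Over the 165 oocytes, with the mean of each replicate removed, the 5 genes with a symbol whose log2(CPM + 1) was most like that of DMAC1 were CCK (Pearson's r of 0.63), CCDC42 (0.584), VOPP1 (0.540), ABCC3 (0.516) and OSR2 (0.514). CCK is among the 86 and the others are not. The median r with DMAC1 was 0.241 over the other 85 genes and 0.0708 over 11584 genes. These values are across oocytes that share batch, depth and diameter and are given as a description. The oocytes above 120 µm, whose 0 counts chose DMAC1 and the other 85 genes, are among the 165. The higher median of the 85 is thus set in part by the rule, and no likeness beyond it is read from these values.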

How the data were processed

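Single-oocyte mRNA libraries of 179 bovine oocytes were deposited, 165 of which form the set the study analysed and are used here. The authors trimmed reads with Trim Galore (version 0.6.6 in the submitters' notes), aligned them with HISAT2 to ARS-UCD1.2 and counted them per gene in SeqMonk, and deposited raw counts without normalization. Handling of strand and of reads with several alignments is not given in the sources used here, and no molecular identifiers were used, so intervals and count limits cover counting error only.

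Rows with the same identifier were summed. Members and gene lists were chosen with earlier results of these data known. By rule, the text names DMAC1, the 12 genes with the largest equal-depth difference, up to 10 called genes per direction and test, 4 genes at the threshold, and list members. Genes of 5 or fewer in a count were named after their values were seen. Of the genes that met the rule, 1 is not reported here. Sums by size group and replicate were tested in edgeR 4.0.16 (R 4.3.3, TMM, filterByExpr with a minimum count of 10 and total of 15, quasi-likelihood test, replicate block). Replicates are library batches, and sums of the same replicate deviated together (21 pairs, r of 0.405 to 0.682). Equal depth was 250000 counts, as exact expected detection and as 20 draws. DESeq2 1.42.0, other filters and left-out sums were alternatives. A change that did not pass a test is not shown to be absent. Tables and figures were made with pandas 2.3.3, scipy 1.17.1 and matplotlib 3.10.9.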

Additional observations from a re-analysis of the deposited data

Results flagged for a closer look

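In 2 groups the oocyte with the highest summed level of the 86 genes stood far from the others of its group, by a gap that was large against the whole range of the group (24 sets of values were looked at, and chance gives about 1 in 20). Among 9 oocytes of 90 to 99 µm in replicate 2, that of 98 µm, with 4249894 counts, had 423.8 CPM, the next 321 CPM and the lowest 217 CPM. Among 7 oocytes of 110 to 119 µm in replicate 2, that of 116.2 µm, with 2244087 counts, had 315 CPM, the next 183 CPM and the lowest 94.5 CPM. Of the 14 deposited oocytes outside the set of 165, 1 was above 120 µm. It measured 139.09 µm, had 3663922 counts and a count for 18 of the 86 genes, against 71 to 76 in the 3 deepest oocytes of the set above 120 µm. It also had a count for fewer genes in all, 8917 against 10440 to 13912 in the 14 oocytes of the set, and it was not in the set the study analysed.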

How the results depend on the processing

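How many of the 86 genes met the rule depended on its settings. It was 34 with low set at more than 50% of oocytes, 12 with 1 count taken as not detected, 61 with all 179 oocytes, 29 in replicate 1 alone, 21 in replicate 2 alone, where 3.16 times as many genes as the 86 met the rule, and 0 at 250000 counts. Alternatives chosen after seeing the data left out 1 oocyte above 120 µm in turn, which gave 47 to 83 genes. The number was 47, 50, 50, 50 and 55 without the replicate 1 oocytes of 130.11, 126.48, 123.3, 134.38 and 127.25 µm, and 47, 53 and 56 without the replicate 2 oocytes of 135, 133.69 and 130 µm. Without the 3 deepest it was 85, and 145 genes met the rule. The median number of genes with a count at 110 to 119 µm was 59 and became 20.8 at 250000 counts, by construction of fewer counts.

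For the change from 100 to 109 µm to 110 to 119 µm, 1 of the 86 genes was called lower. The number was 0 without the replicate block, 5 with DESeq2, 3 without the filter on low counts, 10 of 67 tested with single oocytes as samples (1557 of all 10734 genes), 0 of 67 tested at 250000 counts (7 at an unadjusted p below 0.05) and 2 without the deepest oocyte of 100 to 109 µm, and it ranged from 0 to 3 with 1 sum left out. Over all genes 414 were called, against 0 without the block (648 at an unadjusted p below 0.05), 1967 with DESeq2, 1418 without the filter, 4004 with single oocytes and 725 at 250000 counts, and 0 to 1781 with 1 sum left out. The 0 came without replicate 1 of 100 to 109 µm (1372 at an unadjusted p below 0.05) or of 110 to 119 µm (1666). For the slope, 21 of the 86 fell (1444 of all 13970 genes), against 5 without the block (497 of 13970) and 37 of 67 tested with single oocytes (2888 of 10734), and 14 to 21 with 1 sum left out. Of the 86, 0 rose, against 1 with DESeq2 and 2 with single oocytes, and 0 to 2 with 1 sum left out. Over all genes 3162 were called for the slope, against 1212 without the block and 5643 with single oocytes. Single oocytes treat oocytes of 1 batch as replicates. No listed value changed sign. The cause of these differences was not tested.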
